A study of Mus musculus with 12 samples.

Results

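The 4 ERBB receptor genes Egfr, Erbb2, Erbb3 and Erbb4 and the neuregulin gene Nrg1 were examined for binding of the estrogen receptor ERα and the progesterone receptor PR in mouse mammary glands. A peak was assigned to one of these 5 genes when its summit lay within 50 kb of the gene's span, and 571 of the 741142 peaks deposited for the 8 libraries did so. Merged wherever they overlapped, these peaks formed 248 of 321963 regions. The chromatin came from mice carrying the Y541S substitution in Esr1, the gene of ERα, or wild-type Esr1 (WT), and was precipitated with an antibody against ERα or PR. All mice had implants of estradiol (E2) and progesterone (P4) at 8 weeks of age, and glands were taken 4 days later. The groups were Y541S ERα, WT ERα, Y541S PR and WT PR, with 2 biological replicates each. The labels give no copy number for Y541S and no number of animals per library. D542G samples were not analysed here. The glands were whole, so they held luminal, basal, fat, stromal and immune cells, although the title of the series names luminal cells. A peak list does not tell which cells carried the receptor, and in such bulk chromatin fewer bound cells and weaker binding per cell cannot be told apart.

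The ERBB receptors are receptor tyrosine kinases of the cell surface. They bind growth factors of the EGF family, pair with one another and signal through the RAS and MAP kinase cascade and through PI3 kinase and AKT. ERBB2 has no known ligand of its own and ERBB3 has little kinase activity, so both signal in pairs, often with each other. Neuregulin 1 is a ligand of ERBB3 and ERBB4. In the mammary gland, EGFR takes part in duct growth downstream of amphiregulin, and ERBB4 with neuregulin in the alveolar growth and milk production of pregnancy and lactation.

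Promoter sequence was at hand for 3 of the 5 genes, and it is shown because receptor peaks lay over 2 of these promoters and not over the third. Below are the 250 bases before an annotated transcript start of each gene, from the RefSeq annotation of build GRCm38.p6, equivalent to mm10, written 5′ to 3′ on the gene's strand. Capitals mark the half-site of the estrogen response element, GGTCA or its reverse complement TGACC. The windows are chr11:16751953-16752202 on the plus strand for Egfr, chr11:98412234-98412483 on the plus strand for Erbb2 and chr1:69108060-69108309 on the minus strand for Erbb4. The Egfr and Erbb2 windows directly precede the gene span, whereas the Erbb4 window precedes a start that lies inside the span.
Egfr: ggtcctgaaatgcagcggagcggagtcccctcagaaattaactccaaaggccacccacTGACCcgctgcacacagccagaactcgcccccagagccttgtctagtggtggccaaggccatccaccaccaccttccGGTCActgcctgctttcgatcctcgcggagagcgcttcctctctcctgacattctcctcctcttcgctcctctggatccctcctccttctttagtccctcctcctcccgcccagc
Erbb2: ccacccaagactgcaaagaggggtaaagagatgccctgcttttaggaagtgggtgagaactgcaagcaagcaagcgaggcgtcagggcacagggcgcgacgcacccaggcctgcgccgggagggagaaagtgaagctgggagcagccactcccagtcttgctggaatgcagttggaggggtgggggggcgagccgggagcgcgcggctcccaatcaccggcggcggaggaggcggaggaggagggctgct
Erbb4: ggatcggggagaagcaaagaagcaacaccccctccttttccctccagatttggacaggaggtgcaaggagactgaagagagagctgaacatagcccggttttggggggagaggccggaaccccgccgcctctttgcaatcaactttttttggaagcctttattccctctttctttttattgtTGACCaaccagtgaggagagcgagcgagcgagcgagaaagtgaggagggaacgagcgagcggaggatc
The Egfr window held 2 half-sites, the Erbb4 window 1 and the Erbb2 window 0, against 35.2% of 32851 mouse promoter windows of the same length with at least 1. None of the 3 windows held the full element GGTCANNNTGACC, the half-site of the progesterone response element, TGTTCT, or the full element GNACANNNTGTNC, which 0.0639%, 16.1% and 0.387% of all windows held. Both strands were read for each, and a full estrogen response element also counts as half-sites. The C and G content was 60.8% for Egfr, 66% for Erbb2 and 54% for Erbb4, against a mean of 53.2% over all windows.

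An ERα peak overlapped the Egfr promoter, taken as 250 bases before to 50 after the transcript start, in 4 of 4 ERα libraries. Its percent rank, which places each peak in its own list by the deposited −log10 p with the strongest near 0, was 37.9 and 12.3 in Y541S glands and 22.0 and 20.4 in WT glands. A PR peak lay there in both Y541S libraries, at 65.8 and 47.1, and in WT replicate 1 at 49.0, but WT replicate 2 listed none. At the Erbb2 promoter, ERα peaks were present in 4 of 4 libraries, at percent ranks of 19.5 and 10.8 in Y541S glands and 91.1 and 70.0 in WT glands. PR peaks overlapped the Erbb2 promoter in both Y541S libraries, at 65.9 and 25.9, and in WT replicate 2 at 40.0, and none was listed in WT replicate 1. No peak of any of the 8 libraries overlapped the Erbb4 promoter window, which lies just inside the span and does not cover its end. Of all promoters in the table, 26.5% were overlapped by an ERα region with a peak in all 4 libraries and 24.8% by such a PR region, so occupied promoters were common. The better ERα ranks at the Erbb2 promoter in Y541S glands are a description only, because Y541S lists were longer and ranks from lists of unequal length show no change.

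**Figure D1:**
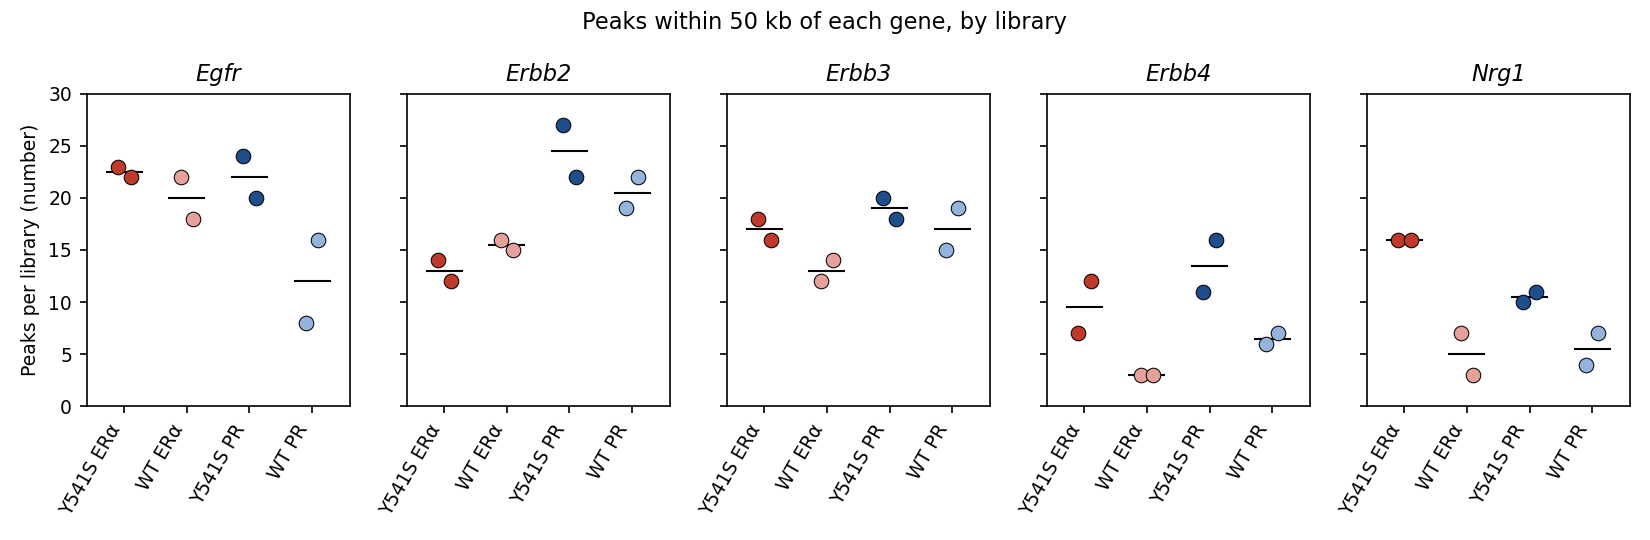
Number of peaks with a summit within 50 kb of each gene (vertical axis) in each library, grouped along the horizontal axis as Y541S ERα, WT ERα, Y541S PR and WT PR. Points are libraries and lines are means of 2. Erbb4 and Nrg1 had more peaks in every Y541S library than in either WT library of the same receptor, while Erbb2 had more peaks in each PR library than in any ERα library. Of all coding genes, 13.7% did the former and 4.63% the latter. The numbers are not scaled to list length, and both Y541S lists of each receptor were longer than both WT lists.

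The lists differed in length, from 64488 to 113695 peaks, and both Y541S lists of each receptor were longer than both WT lists. Peak numbers at a gene were therefore expressed per 100000 peaks of the list, and compared as log2 values with 1 peak added before scaling. The exact permutation test over libraries cannot give a p below 0.333 for 2 against 2 libraries. A gene was called higher or lower when the groups did not overlap, and each call is set against the share of all coding genes called in the same way. The 5 genes were tested in 4 comparisons within a receptor or genotype, and the smallest of those p-values adjusted over all coding genes (Benjamini-Hochberg) was 0.705. WT PR replicate 1 stood apart from the other PR lists, with a median fold enrichment over all its peaks of 3.27 against 4.15 to 4.64, and values without it are given where it turns a sign or moves a called difference or a contrast by over 1.5 times. Across all coding genes, the median difference of Y541S over WT was −0.18 per 100000 ERα peaks and −0.07 per 100000 PR peaks. In plain peak numbers the same medians were 0.45 and 0.21, and the gene values below should be read against them.

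Egfr, the receptor of EGF and amphiregulin, spans 162 kb of chromosome 11 (chr11:16752203-16913907) with the gene Fbxo48 in the surrounding window. It had 23 and 22 ERα peaks in Y541S glands and 22 and 18 in WT glands, and 24 and 20 PR peaks in Y541S glands and 8 and 16 in WT glands. Per 100000 peaks, ERα gave 21.5 and 20.8 in Y541S libraries against 30.3 and 27.9 in WT libraries. PR gave 21.1 and 19.7 in Y541S libraries against 9.64 and 17.1 in WT libraries. Relative to list length, Egfr thus had fewer ERα peaks and more PR peaks in Y541S than in WT glands, with no overlap of the genotypes for either receptor. The log2 difference was −0.47 for ERα (SE 0.06, exact p = 0.333) and 0.60 for PR (SE 0.38, exact p = 0.333), the smallest p the design allows. Among coding genes with a peak, 28.5% were lower for ERα and 14.4% were higher for PR in the same sense. The ERα direction rests on the scaling: in plain peak numbers the difference was 0.17 and the genotypes overlapped. The scaled ERα difference was −0.03 among peaks with −log10 p of at least 5 and −0.11 in the 20000 strongest of each list. At the same cuts the PR difference was 0.92 and 0, as no PR list had an Egfr peak among its 20000 strongest. The PR value was 0.23 without WT replicate 1 and 0.98 without WT replicate 2.

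Of the 78 regions at Egfr, 58 lay inside the gene and 55 were found in a single library. In ERα libraries 6 regions were present in all 4, 3 in the Y541S pair but no WT library (Y541S-only) and 1 in the WT pair but no Y541S library (WT-only), of 53 ERα regions. Over the genome 8.92%, 4.48% and 0.63% of ERα regions were of these classes, and the counts at Egfr were close to those shares. Of 43 PR regions, 3 were present in all 4 libraries, and none was Y541S-only or WT-only, where 19.8%, 6.92% and 0.558% of all PR regions were. The region at chr11:16769796-16770227, 17.8 kb inside the gene, was present in all 8 libraries. Its percent ranks were 3.36 and 5.83 for Y541S ERα and 7.74 and 7.03 for WT ERα, but 56.2 and 39.6 for Y541S PR and 93.5 and 47.8 for WT PR. All 4 ERα ranks were better than all 4 PR ranks, as was so for 20.8% of the regions found in all 8 libraries of the genome, against 10.6% in the reverse direction. A second intragenic region at chr11:16814287-16814768, 62.3 kb from the gene start, had a peak in 4 of 4 ERα libraries and in no PR library. It ranked at 7.52 and 2.63 in Y541S glands and at 12.0 and 15.5 in WT glands. The best PR region, chr11:16950822-16951634, lay over the promoters of Fbxo48 and the noncoding gene Eldr, 37.3 kb beyond Egfr, with ranks of 27.8 and 23.6 in Y541S glands and 85.8 and 31.2 in WT glands. The WT-only ERα region, chr11:16874270-16874607, ranked at 99.9 and 24.3 in the WT lists. The 2 best ranked Y541S-only ERα regions lay beyond the gene, 4.93 kb away at chr11:16918675-16919191 with ranks of 21.5 and 56.2, and 22.4 kb away at chr11:16936186-16936543 with ranks of 37.2 and 47.7.

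**Figure D2:**
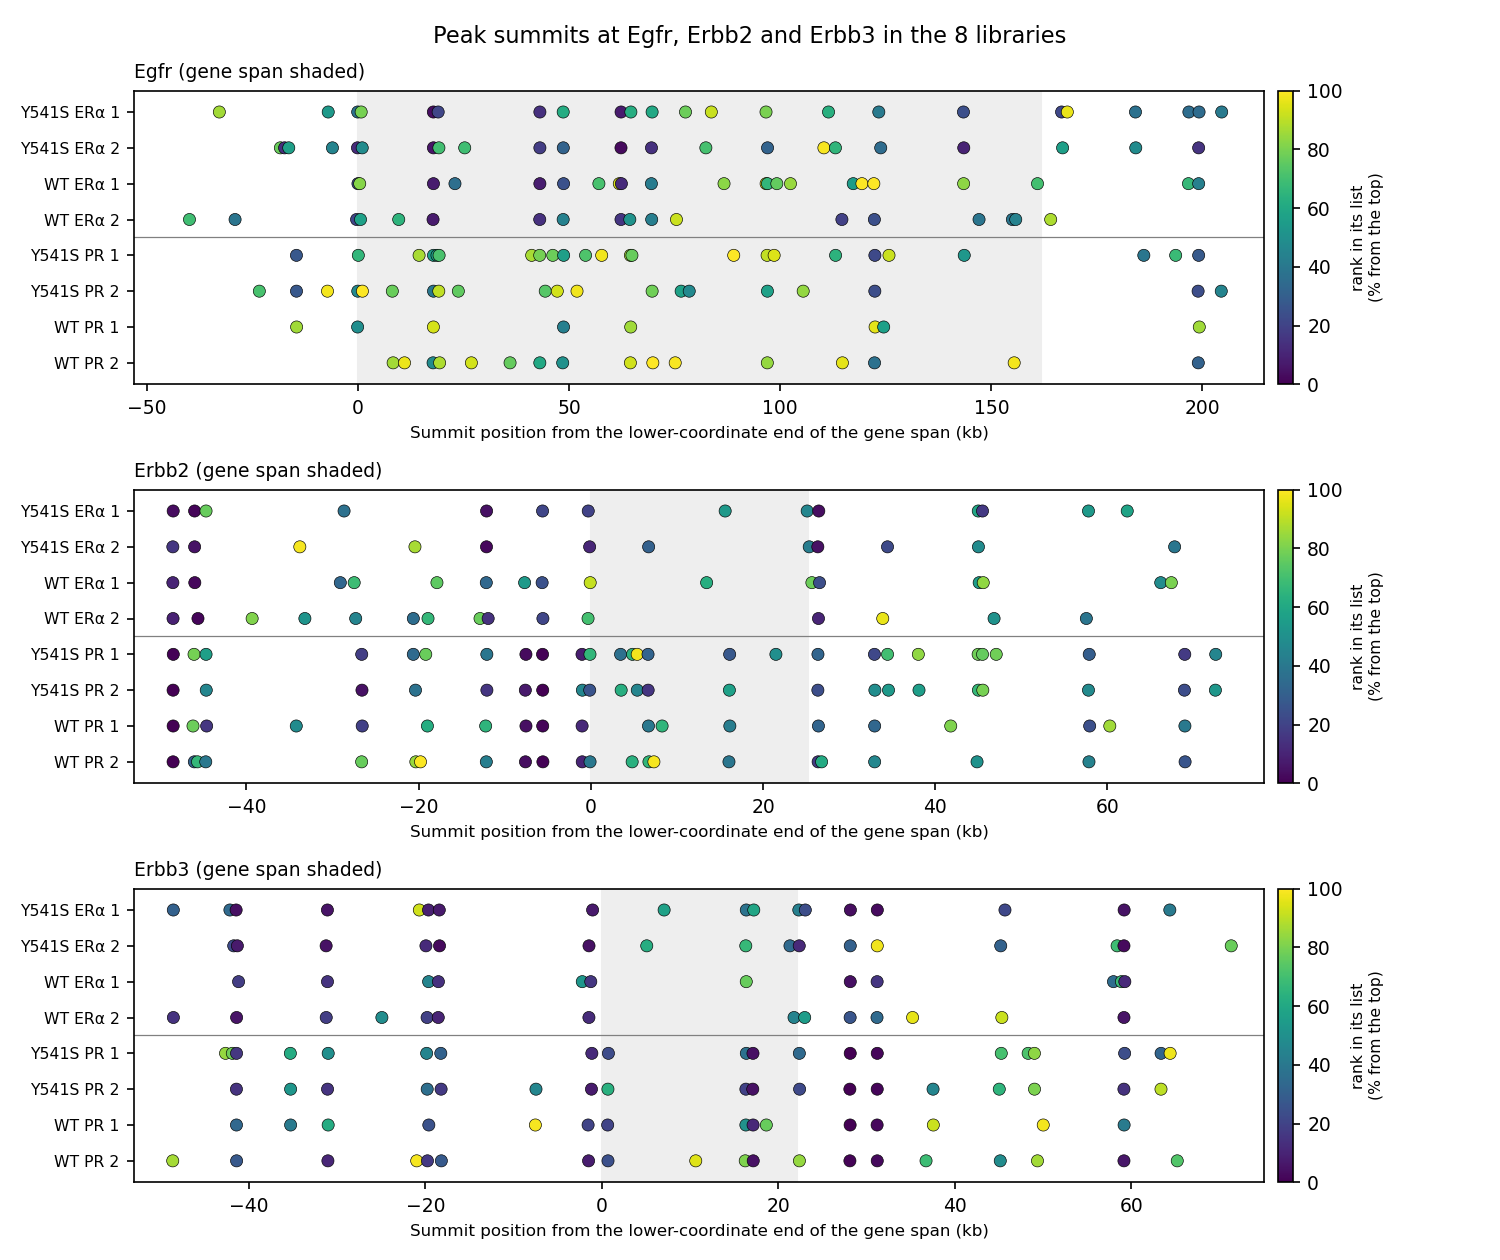
Positions of all peak summits at Egfr, Erbb2 and Erbb3 in the 8 libraries, in kb from the lower-coordinate end of the gene span (shaded), coloured by percent rank in the list (dark is strong). Erbb2 and Erbb3 carry columns of dark PR peaks outside the gene span, whereas the darkest recurrent column at Egfr is of ERα peaks inside the gene, at 17.8 kb.

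Erbb2, the ligandless partner receptor, spans 25.2 kb of chromosome 11 (chr11:98412484-98437716) and shares its window with 7 other coding genes: Stard3, Tcap, Pnmt, Pgap3, Mien1, Grb7 and Ikzf3. It had 14 and 12 ERα peaks in Y541S glands and 16 and 15 in WT glands. PR peaks numbered 27 and 22 in Y541S glands and 19 and 22 in WT glands. Erbb2 was the only one of the 5 genes with fewer ERα peaks in every Y541S library than in either WT library, in plain numbers as well as relative to list length. Per 100000 peaks, ERα gave 13.1 and 11.4 in Y541S libraries and 22.0 and 23.3 in WT libraries, a log2 difference of −0.88 (SE 0.10, exact p = 0.333). That value lay at the 3.56th percentile of coding genes, of which 28.5% were lower without overlap on this scale. In plain numbers the difference was −0.24, and 1.04% of coding genes were lower without overlap on that scale. PR gave 23.7 and 21.7 per 100000 in Y541S libraries and 22.9 and 23.5 in WT libraries, which overlapped (log2 difference −0.04, SE 0.06, exact p = 1). Among the 20000 strongest peaks of each list the ERα difference was 0.13, of the other sign.

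PR peaks were dense at Erbb2. They averaged 19.6 ± 2.8 per 100 kb of window in Y541S glands and 16.4 ± 1.7 in WT glands (SD, n = 2), placing Erbb2 at the 98.5th to 99.6th percentile of coding genes in the 4 PR libraries. ERα peaks averaged 10.4 ± 1.1 per 100 kb in Y541S glands and 12.4 ± 0.6 in WT glands, at the 72.9th to 96.0th percentile. All 4 PR libraries had more peaks at Erbb2 than any of the 4 ERα libraries, as 4.63% of coding genes did. The difference of ERα over PR across both genotypes, with receptor permuted within genotype, was −0.62 in log2 peak number (SE 0.10, exact p = 0.0556, the lowest that 36 arrangements can give), and its p adjusted over all coding genes was 0.452. Per 100000 peaks the same difference was −0.43 (SE 0.06, exact p = 0.167). It was −0.85 in Y541S glands without overlap, against 24.7% of coding genes lower there, and −0.01 in WT glands.

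The strongest PR region at Erbb2 lay inside Stard3, 48.5 kb before the Erbb2 start, at chr11:98363704-98364243. It was present in all 8 libraries, at percent ranks of 3.43 and 15.8 for Y541S ERα, 10.03 and 9.21 for WT ERα, 0.60 and 0.36 for Y541S PR and 0.15 and 0.22 for WT PR. Its PR ranks were all better than its ERα ranks. The strongest ERα region, chr11:98366187-98367115, was also in Stard3, with ranks of 1.42 and 4.93 in Y541S glands and 2.10 and 1.42 in WT glands. Nearer to Erbb2, a PR region 5.58 kb before the gene start at chr11:98406668-98407130 ranked at 0.77 and 0.34 in Y541S glands and at 1.46 and 0.50 in WT glands. It was singled out after its values were seen. Of 38120 PR regions present in all 4 libraries over the genome, 8221 had no ERα peak in any library (PR-only). At Erbb2 this was so for 5 of 13, and the difference was not tested. One of these, chr11:98411184-98411723, lay 1.02 kb before the Erbb2 start, with ranks of 8.17 and 46.1 in Y541S glands and 11.6 and 10.3 in WT glands. Another, chr11:98481241-98481670, lay in Ikzf3 at 17.3 and 23.4 in Y541S glands and 40.5 and 26.5 in WT glands.

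Of 33 PR regions at Erbb2, 6 were Y541S-only and 0 WT-only, and of 32 ERα regions 1 was of each class. The genome shares of these classes were 6.92% and 0.558% for PR and 4.48% and 0.63% for ERα, and the difference between the receptors was not tested. The best ranked Y541S-only PR region inside Erbb2 was chr11:98415819-98416083, 3.46 kb from the start, with ranks of 36.4 and 62.5. The other named one, chr11:98484864-98485215, lay in Ikzf3 at 45.5 and 53. The Y541S-only ERα region, chr11:98437544-98437966, adjoined the far end of Erbb2 with ranks of 45.7 and 42.1, and the WT-only ERα region, chr11:98384947-98385313, lay beside Tcap with ranks of 68.4 and 45.3. All these ranks were in the middle of their lists. Of the 48 regions in the window, 13 had Erbb2 as their nearest coding gene, so most peaks counted here lay closer to another gene.

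Erbb3, the neuregulin receptor with little kinase activity, spans 22.1 kb of chromosome 10 (chr10:128567523-128589635), with Esyt1, Zc3h10, Rpl41, Pa2g4, Rps26 and Ikzf4 in its window. It had 18 and 16 ERα peaks in Y541S glands and 12 and 14 in WT glands, and 20 and 18 PR peaks in Y541S glands and 15 and 19 in WT glands. Per 100000 peaks, ERα gave 16.8 and 15.1 in Y541S libraries and 16.5 and 21.7 in WT libraries. PR gave 17.6 and 17.8 in Y541S libraries and 18.1 and 20.3 in WT libraries. The genotypes overlapped for ERα (log2 difference −0.27, SE 0.20, exact p = 0.333), and PR was slightly lower in Y541S glands (−0.13, SE 0.08, exact p = 0.333), as for 22.2% of coding genes. Leaving out 1 library, the ERα value ran from −0.46 to −0.08. The PR value was −0.20 without WT replicate 1 and −0.05 without WT replicate 2. Both were close to the medians of all genes. In plain numbers the differences had the other sign, 0.36 for ERα and 0.16 for PR.

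Most regions bound by both receptors in every library lay in the window of Erbb3. It held 7 of the 11 such regions at the 5 genes, among 39 regions in that window. Over the genome, 3.76% of regions were of this class. Of the 7, 0 lay inside Erbb3, 2 had it as their nearest coding gene and 4 overlapped a promoter. Of the 39, 14 had Erbb3 as their nearest coding gene. In Y541S glands, 11 of 11 ERα regions seen in each replicate overlapped a PR region that was also seen in each, and in WT glands 7 of 8 did. The same share over the genome was 62.6% in Y541S glands and 56.2% in WT glands. The strongest PR region, chr10:128595362-128595923, lay 6.02 kb beyond the higher-coordinate end of Erbb3 with no coding gene nearer. It ranked at 0.30 and 0.29 in Y541S glands and at 0.08 and 0.83 in WT glands. ERα peaks at the same place ranked at 3.68 and 30.6 in Y541S glands and at 4.03 and 26.5 in WT glands, and so stood below every PR rank. The all-8 region with the best worst rank, chr10:128565581-128566702, covered the Pa2g4 promoter. Its ranks were 6.73 and 4.67 for Y541S ERα, 15.7 and 12.4 for WT ERα, 11.8 and 7.40 for Y541S PR and 20.3 and 8.07 for WT PR. The best ERα region, chr10:128626247-128627133, covered the Rps26 promoter at 4.97 and 2.46 in Y541S glands and 11.4 and 5.24 in WT glands.

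Of 25 ERα regions at Erbb3, 0 were Y541S-only and 0 WT-only. Of 28 PR regions, 2 were Y541S-only and 0 WT-only. With 4.48% of ERα and 6.92% of PR regions Y541S-only over the genome, these counts were near the background. The 2 Y541S-only PR regions were weak, at chr10:128616415-128616719 with ranks of 83.2 and 80.4 and at chr10:128630729-128631043 in Ikzf4 with ranks of 32.4 and 89.9. The one PR-only region, chr10:128567841-128568404, lay 0.65 kb inside the lower-coordinate end of the gene, with ranks of 22.8 and 63.5 in Y541S glands and 20.2 and 24.6 in WT glands.

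**Figure D3:**
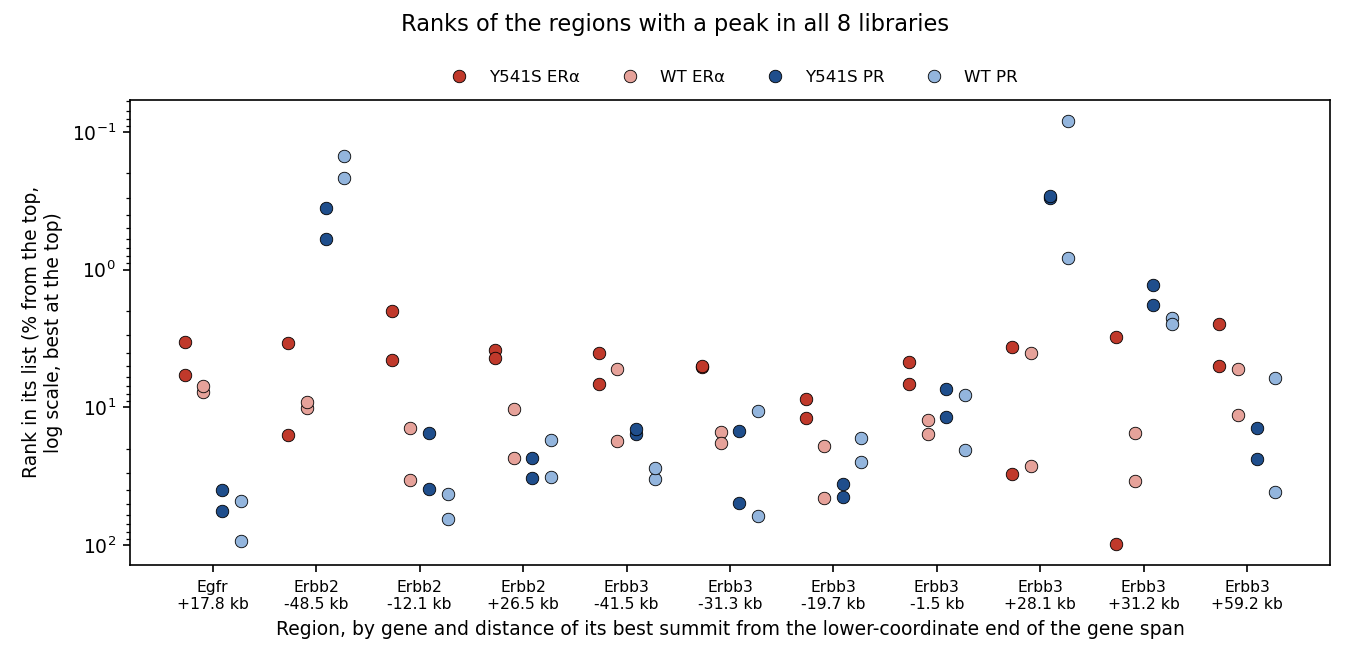
Percent rank of the 11 regions present in all 8 libraries (vertical axis, log scale, strongest at the top), by gene and distance of the best summit from the lower-coordinate end of the gene span. Points are libraries. In the Stard3 region before Erbb2 and in 2 regions beyond Erbb3 every PR rank was better than every ERα rank, and in the Egfr region the reverse held.

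Erbb4, the neuregulin receptor of alveolar development, spans 1077 kb of chromosome 1 (chr1:68031884-69108576), with no other coding gene in its window. It had 7 and 12 ERα peaks in Y541S glands and 3 and 3 in WT glands. PR peaks numbered 11 and 16 in Y541S glands and 6 and 7 in WT glands. For its length Erbb4 was sparsely occupied, with 0.81 ± 0.30 ERα peaks per 100 kb in Y541S glands and 0.25 in both WT libraries, and 1.15 ± 0.30 PR peaks in Y541S glands and 0.55 ± 0.06 in WT glands (SD, n = 2). Per 100000 peaks, ERα gave 6.55 and 11.4 in Y541S libraries and 4.13 and 4.65 in WT libraries (log2 difference 0.71, SE 0.37, exact p = 0.333). PR gave 9.68 and 15.8 in Y541S libraries and 7.23 and 7.49 in WT libraries (0.65, SE 0.33, exact p = 0.333). The ERα value was 1.07 without Y541S replicate 1 and 0.36 without Y541S replicate 2, and the PR value 0.98 and 0.31. Y541S libraries were higher for both receptors, where 15.3% of coding genes were higher for ERα and 14.4% for PR. The ERα difference was −0.13 among peaks with −log10 p of at least 5, so the sign held for the full lists only.

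Of 20 ERα regions at Erbb4, 0 were present in all 4 libraries, where 8.92% of all ERα regions were, 3 were in both Y541S libraries and 0 in both WT libraries. The one Y541S-only ERα region, chr1:69138975-69139315, lay 30.5 kb beyond the gene, on the side of its start, with ranks of 53.6 and 28. Of 21 PR regions, 4 were present in all 4 libraries, near the 19.8% of all PR regions. All 4 were inside the gene. They had no ERα peak in any library, as was so for 8221 of the 38120 such PR regions of the genome. The strongest, chr1:68550378-68551016, lay 519 kb from the lower-coordinate end. It ranked at 3.87 and 1.92 in Y541S glands and at 4.53 and 14.1 in WT glands, with a fold enrichment over background, a value of the authors, of 20.3 and 16.6 in Y541S lists and 10.1 and 8.30 in WT lists. A neighbour at chr1:68573928-68574679 ranked at 7.29 and 4.15 in Y541S glands and at 36.9 and 17.8 in WT glands. The 3 Y541S-only PR regions were also intragenic, and the best ranked were chr1:68694574-68695016 at 31.2 and 13.2 and chr1:68720603-68720930 at 57.6 and 50.2.

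Nrg1, the ligand of ERBB3 and ERBB4, spans 1084 kb of chromosome 8 (chr8:31807452-32891609), with only Gm3985 also in the window. It had 16 and 16 ERα peaks in Y541S glands and 7 and 3 in WT glands. PR peaks numbered 10 and 11 in Y541S glands and 4 and 7 in WT glands. Per 100000 peaks, ERα gave 15.0 and 15.1 in Y541S libraries and 9.65 and 4.65 in WT libraries, a log2 difference of 0.95 (SE 0.42, exact p = 0.333) at the 97.4th percentile of coding genes. PR gave 8.80 and 10.9 in Y541S libraries and 4.82 and 7.49 in WT libraries (0.58, SE 0.29, exact p = 0.333). Without WT replicate 2 the ERα value was 0.54, and without WT replicate 1 the PR value was 0.32. The ERα excess lay among weaker peaks: the difference was −0.38 among peaks with −log10 p of at least 5 and −0.37 in the 20000 strongest of each list. Of the 16 ERα peaks in each Y541S library, 3 and 3 had a −log10 p of at least 5, against 4 and 2 in the WT libraries.

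A single strong ERα site stood out within Nrg1. The region chr8:31829729-31830577, 22.9 kb inside the lower-coordinate end, was the only ERα region present in all 4 libraries and had no PR peak in any library. It ranked at 0.80 and 0.51 in Y541S glands and at 2.86 and 2.12 in WT glands, with fold enrichments of 15.5 and 14.5 in Y541S lists and 9.41 and 8.66 in WT lists. The best PR region, chr8:32092050-32092539, lay 285 kb from the lower-coordinate end. It ranked at 2.30 and 6.13 in Y541S glands and 12.4 and 18.7 in WT glands. An ERα peak lay there in Y541S replicate 1 only, at 53.6. The one Y541S-only ERα region was chr8:32002895-32003202, with ranks of 41.0 and 77.2. Of 3 Y541S-only PR regions, the best ranked were chr8:32099854-32100378 at 17.4 and 59.2 and chr8:32211092-32211357 at 46.8 and 70.7. One WT-only PR region, chr8:32147478-32147872, ranked at 56.3 and 61.1. ERα summits lay within it in WT replicate 1, at 14.4, and in Y541S replicates 1 and 2, at 41.0 and 93.5.

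**Figure D4:**
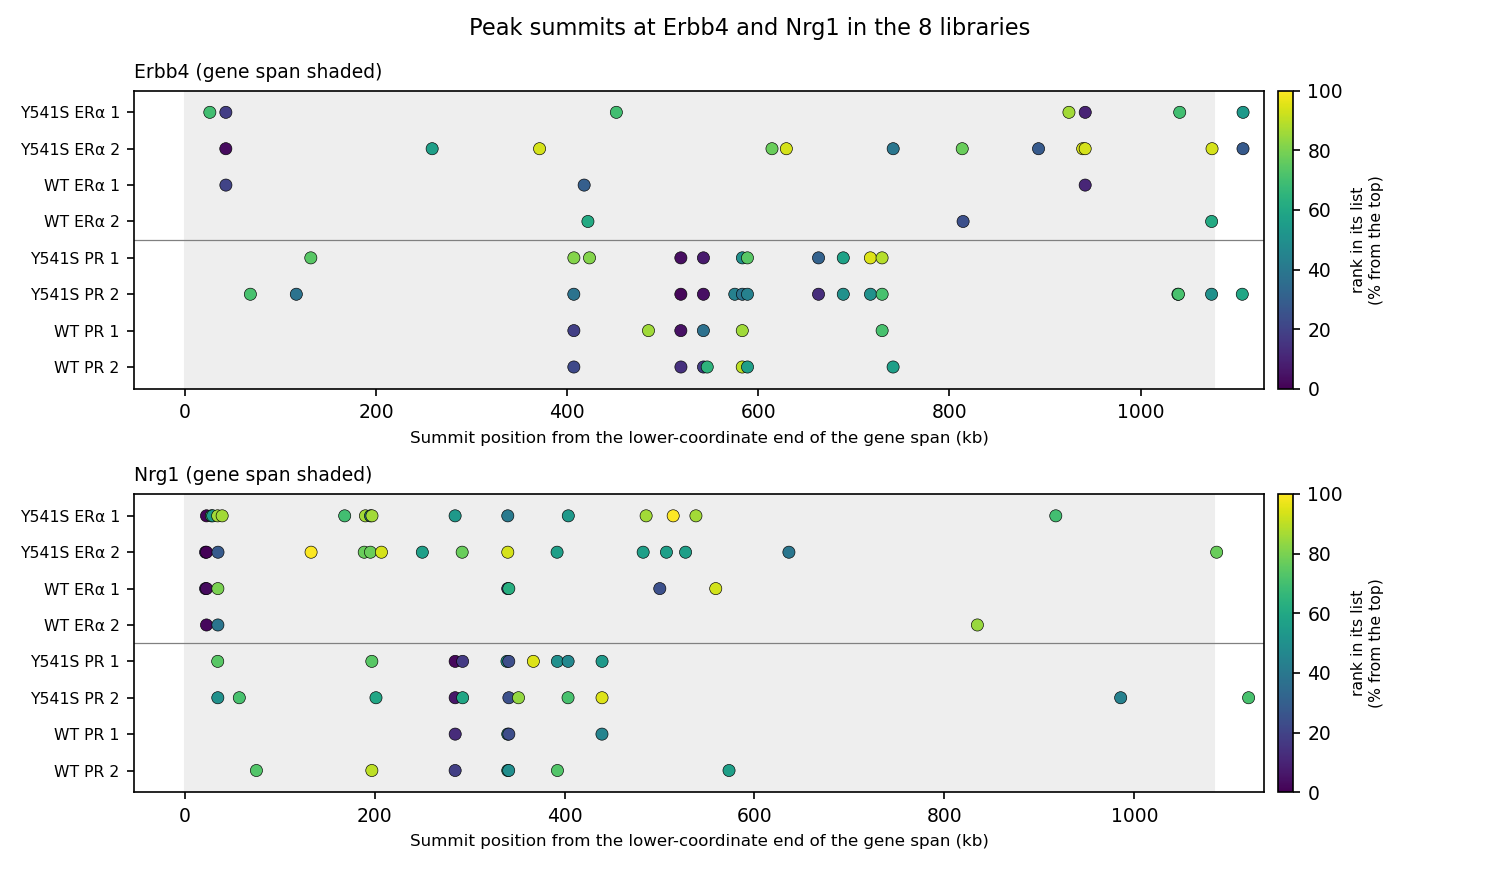
Positions of all peak summits at Erbb4 and Nrg1 in the 8 libraries, in kb from the lower-coordinate end of the gene span (shaded), coloured by percent rank in the list (dark is strong). Recurrent PR peaks of Erbb4 lay near the middle of the gene, at places where ERα had no peak. ERα summits of Erbb4 recurred at 42.7 to 42.8 kb and at 942 kb, in both Y541S libraries and WT replicate 1. The strongest ERα peak of Nrg1 lay near its lower-coordinate end, where PR had no peak. Weaker ERα summits of Nrg1 lay at 34.7 to 35.0 kb in every ERα library. Beside them were PR summits at 34.7 and 34.8 kb in the Y541S PR libraries.

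Over both receptors, with genotype permuted within each, Erbb4 and Nrg1 were higher in every Y541S than in every WT library of the same receptor. The mean log2 difference was 0.68 for Erbb4 (SE 0.25) and 0.76 for Nrg1 (SE 0.25), each with exact p = 0.0556, the lowest p of 36 arrangements, and p adjusted over 20268 coding genes of 0.413. By this measure 3.35% of coding genes were higher in Y541S glands for both receptors, and 7.97% were lower. In plain peak numbers both genes were also higher, as were 13.7% of coding genes. Between libraries of the same replicate number, the ERα difference of Erbb4 was 0.44 and 0.99 and its PR difference 0.32 and 0.97. Nrg1 had ERα differences of 0.53 and 1.38 and PR differences of 0.68 and 0.47. Both genes are long, and of the coding genes of at least 500 kb, 53.7% were higher for ERα and 31.1% for PR, so the direction was common among genes of such length. Erbb3 had −0.20 (SE 0.11, exact p = 0.0556), with overlap of the genotypes for ERα, and Erbb2 had −0.46 (SE 0.06, exact p = 0.167). Egfr, whose differences had opposite signs, had 0.07 (SE 0.19, exact p = 0.944). Without WT PR replicate 1 the Egfr differences were −0.47 for ERα and 0.23 for PR, so the sign of their mean turned negative. The ERα and PR libraries may share chromatin, since the labels do not say, and p-values over both receptors would then be too small.

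Of the 5 genes, Egfr had the largest contrast between the receptors in its genotype difference. The ERα difference minus the PR difference was −1.07, with an exact p of 0.0556, the smallest possible, when genotype was permuted within receptor. The same contrast was −0.83 for Erbb2 (exact p = 0.222), −0.14 for Erbb3 (0.778), 0.07 for Erbb4 (0.944) and 0.38 for Nrg1 (0.667). Without WT PR replicate 1 the value was −0.70 for Egfr, −0.07 for Erbb3 and 0.63 for Nrg1. These contrasts were not set against other coding genes, and their p-values were not adjusted.

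**Figure D5:**
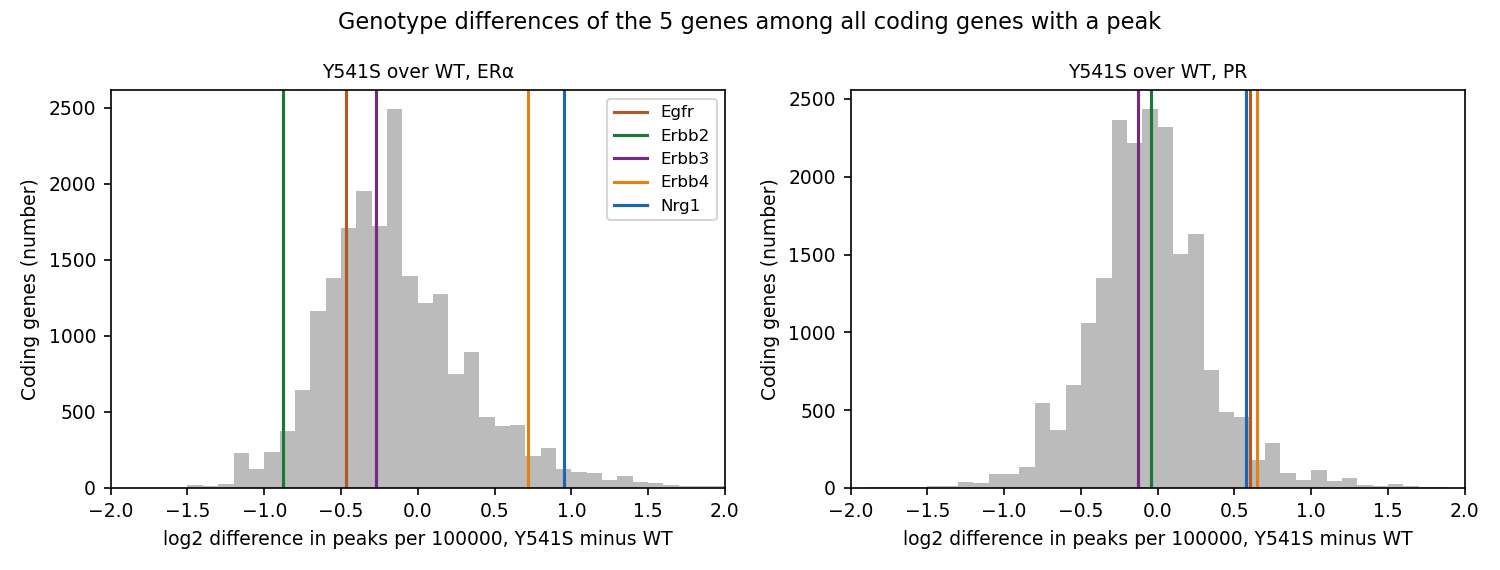
Histograms of the log2 difference in peaks per 100000 peaks of the list, Y541S minus WT, over all coding genes with a peak (vertical axis, number of genes), for ERα (left) and PR (right). Coloured lines mark the 5 genes. Nrg1 and Erbb4 lay to the right in both panels, Erbb2 at −0.88 on the left for ERα only, and Egfr at −0.47 for ERα and 0.60 for PR.

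Between the receptors, Egfr had more ERα than PR peaks in WT glands. Its ERα value exceeded PR by 1.12 on the log2 scale in WT glands without overlap (SE 0.38, exact p = 0.333), against 25.0% of coding genes higher there, and by 0.05 in Y541S glands with overlap. Without WT PR replicate 1 the WT value was 0.75. Nrg1 had more ERα than PR peaks in Y541S glands (0.58, SE 0.15, exact p = 0.333), as did 22.3% of coding genes, and overlapped in WT glands (0.20, SE 0.49). The WT value was −0.05 without WT PR replicate 1, and ran from −0.21 to 0.62 without 1 library. Erbb4 had fewer ERα than PR peaks in WT glands (−0.54, SE 0.09, exact p = 0.333), as 17.2% of coding genes did, and overlapped in Y541S glands (−0.47, SE 0.49), with −0.83 to −0.11 when 1 library was left out. Erbb3 was lower for ERα in Y541S glands without overlap (−0.14, SE 0.07), as 24.7% of coding genes were. That value was −0.21 without ERα replicate 1 and −0.07 without ERα replicate 2, and in plain peak numbers the receptors overlapped. In WT glands the Erbb3 value was 0.01 (SE 0.20), with −0.07 without WT PR replicate 1 and −0.18 to 0.20 without 1 library. Over both genotypes, the exact p was 0.111 for Egfr (0.59) and Erbb4 (−0.51) and larger for the others.

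Reproducible ERα regions, those found in both replicates of a genotype, shared their place with PR to unequal degrees. At Egfr 4 of 11 in Y541S glands and 3 of 7 in WT glands overlapped a reproducible PR region, and at Erbb2 5 of 7 in each genotype. At Erbb4 and Nrg1 the count was 0 in both genotypes, of 3 regions each in Y541S glands and of 0 and 2 in WT glands. Over the 5 genes together, 20 of 35 (57.1%) overlapped a reproducible PR region in Y541S glands and 15 of 24 (62.5%) in WT glands. The genome shares were 62.6% and 56.2%, so the totals were near the background. With so few regions per gene, these are counts without a test.

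Summed over the 5 genes, the classes of regions were close to their shares in the genome. Of 163 ERα regions, 6 (3.68%) were Y541S-only and 2 (1.23%) WT-only, against 4.48% and 0.63% of all ERα regions, and 20 (12.3%) were present in all 4 libraries, against 8.92%. Of 143 PR regions, 14 (9.79%) were Y541S-only and 1 (0.70%) WT-only, against 6.92% and 0.558%, and 31 (21.7%) were present in all 4, against 19.8%. Over the 8 libraries, 2 regions were ERα-only (0.81%), 10 PR-only (4.03%) and 11 present in all (4.44%), against 0.505%, 2.55% and 3.76%. Of the 20 ERα regions present in all 4 libraries, 11 ranked better in both Y541S than in both WT lists and 1 the reverse, where 37.2% and 5.1% of all such regions did. Of the 31 such PR regions, the numbers were 12 and 4, where 26.5% and 10.4% did. Leaving out 1 library loosens the definition of a class, and the Y541S-only counts then ran from 7 to 44 for ERα and from 19 to 37 for PR, and the WT-only counts from 3 to 24 and from 1 to 19. The ranks come from lists of different lengths and show no change in binding.

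Another 38 genes of the ERBB pathway were followed as a list: 10 ligands, 2 sheddases, 17 adaptors and effectors and 9 regulators of the receptors. ERα regions present in all 4 libraries occurred at 35 of the 38 and PR regions at 36, where 72.4% and 78.1% of coding genes had one. At least 1 Y541S-only region was found at 22 for ERα and 26 for PR, where 49.4% and 55.2% of coding genes had one. Per 100000 ERα peaks, 5 genes of the list were higher and 13 lower in Y541S glands, with a median log2 difference of −0.20, and per 100000 PR peaks 6 were higher and 11 lower, with a median of −0.07. Over all coding genes 15.3% were higher and 28.5% lower for ERα, and 14.4% and 22.2% for PR, so the counts were near the background. The medians were also near those of all coding genes, −0.18 and −0.07.

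Errfi1, which encodes a feedback inhibitor of ERBB kinases, had the most ERα regions present in all 4 libraries, with 10, followed by the kinase gene Map2k2 and the ubiquitin ligase gene Stub1 with 8 each. Errfi1, Tgfa, a ligand of EGFR, and Pik3r1, the regulatory subunit of PI3 kinase, each had 12 such PR regions. Y541S-only ERα regions were most numerous at Cbl, a ubiquitin ligase gene for EGFR, with 5, and at the adaptor gene Gab1 with 4. Y541S-only PR regions numbered 7 at Lrig1, an inhibitor of the ERBB receptors, and 5 each at Shc1 and Akt1. Areg, the amphiregulin gene and the best known estrogen-induced ligand of EGFR in the gland, had 5 and 4 ERα peaks in Y541S glands and 2 and 3 in WT glands, with no ERα region in all 4 libraries. It had 13 and 8 PR peaks in Y541S glands and 9 and 6 in WT glands, with 3 PR regions in all 4. Relative to list length, the log2 difference of Y541S over WT at Areg was 0.03 for ERα and 0.14 for PR. On that scale the genotypes overlapped for both receptors. Areg is an exception to the naming rule given below, as it was not among the genes with most regions.

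Among 17676 coding genes with at least 2 peaks per library on average, those with the most similar peaks per 100000 over the 8 libraries were sought, by the root mean square difference on the log2 scale. For Egfr they included Afap1 (0.19) and Clmp (0.19). For Erbb2 they were Pgap3 (0.11), whose window overlaps that of Erbb2, Trp53tg5 (0.12) and Cdc42bpb (0.13). Erbb3 was closest to Cracr2b (0.07), Ap2a1 (0.07) and Smg9 (0.07). For Erbb4 the nearest were Qpct (0.22), Gata3 (0.28) and Lrcol1 (0.29), and for Nrg1 they were Adamts19 (0.23), Enpp1 (0.26) and Zfp697 (0.30). Gata3, a luminal transcription factor gene, had 6 and 10 ERα peaks in Y541S glands and 3 and 2 in WT glands, and 8 and 12 PR peaks in Y541S glands and 7 and 7 in WT glands. Because Gata3 was found by its likeness to Erbb4, these counts follow from the search and show no link between the genes.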

How the data were processed

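ChIP-seq peaks of ERα and PR were taken from 8 libraries of mouse mammary gland, in 4 groups of 2. Each library had its own deposited peak list, without pooling of replicates, and positions refer to mm10, per the submitters' processing notes. Which aligner and peak caller were used, and whether with input, is not given in the sources used here. Per the file columns, the authors gave each peak a score, its fold enrichment at the summit as a ratio, a −log10 p and a −log10 q, with the lowest deposited −log10 p at 2.00. These are the authors' values, and ranks by −log10 p served within a list only. Read depth is unknown.

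Gene spans came from RefSeq GRCm38.p6 (21887 coding genes), without exons or, for Erbb3 and Nrg1, strand. Summits within 50 kb were counted, peaks overlapping by at least 1 bp were merged into regions, and numbers were compared per 100000 peaks with 1 peak added, using two-sided exact permutation tests (python 3.11.15, numpy 2.4.6, pandas 2.3.3). The replicates are called biological without naming animals, so p-values measure the spread between libraries. The counting was tested on simulated lists. The 5 genes and the pathway list were chosen with earlier results of these data known. Regions were named by a rule: for each gene the best ranked in all 8 libraries and in the 4 of each receptor, up to 2 for each class that differed by genotype or receptor, for the pathway list up to 3 genes with most regions, and 3 most similar genes, of which 1 for Egfr is not reported here. Exceptions are said to be so. The labels do not say whether the same replicate number pairs libraries, and the main tests did not pair them. Deviations of libraries with the same number were weakly correlated (−0.01 to 0.12 over 20268 genes). Alternatives were a 10 kb window, −log10 p of at least 5, the 20000 strongest peaks, unscaled numbers, merging of summits within 200 bp, a replicate block and leaving out each library.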

Additional observations from a re-analysis of the deposited data

Results flagged for a closer look

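For Egfr the genotype difference relative to list length had opposite signs for ERα and PR. The log2 difference of Y541S over WT in peaks per 100000 was −0.47 for ERα and 0.60 for PR, a contrast of −1.07. Permuting genotype within receptor (36 arrangements, two-sided) gave an exact p of 0.0556, and no smaller p is possible. The contrast was −0.70 without WT PR replicate 1, −1.44 without WT PR replicate 2 and −0.72 in plain peak numbers. It was −0.11 in the 20000 strongest peaks of each list, where no PR list had a peak at Egfr. That value is the ERα difference alone, so this cut cannot check the contrast. WT PR replicate 1, with 8 peaks at Egfr against 16 in WT PR replicate 2, also had the lowest median fold enrichment of the PR lists. The part of that library in the contrast was not tested.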

How the results depend on the processing

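The number of libraries and the unknown read depth limit these comparisons, and a region absent from a list may hold signal below the caller's threshold. For peaks summed over the 5 genes, the log2 difference of Y541S over WT for ERα was −0.17 per 100000 peaks. It was −0.038 with a 10 kb window, −0.072 at −log10 p of at least 5, −0.038 in the 20000 strongest peaks and 0.46 in plain numbers, and −0.18 to −0.17 without 1 library. For PR it was 0.26, against 0.077 in the 20000 strongest peaks, 0.55 in plain numbers and 0.13 to 0.40 without 1 library. ERα over PR was −0.18 in Y541S glands, against −0.13 with a 10 kb window, 0.031 at −log10 p of at least 5, 0.38 in the 20000 strongest peaks and −0.22 to −0.14 without 1 library. In WT glands it was 0.26, against 0.40 at −log10 p of at least 5, 0.49 in the 20000 strongest peaks, −0.11 in plain numbers and 0.12 to 0.39 without 1 library. Y541S-only ERα regions numbered 6, against 3 at −log10 p of at least 5 and 0 in the 20000 strongest. They numbered 44 and 40 without Y541S replicate 1 or 2, and 13 and 7 without WT replicate 1 or 2. WT-only ERα regions numbered 2, against 1 with a 10 kb window, 0 at −log10 p of at least 5 and 1 in the 20000 strongest, and 3 to 24 without 1 library. Y541S-only PR regions numbered 14, against 9 with a 10 kb window and 1 in the 20000 strongest. They numbered 37 and 36 without Y541S replicate 1 or 2, and 19 and 23 without WT replicate 1 or 2. WT-only PR regions numbered 1, against 0 at −log10 p of at least 5, 0 in the 20000 strongest and 2 when summits within 200 bp were merged, and 1 to 19 without 1 library. Leaving out a library loosens the definition of these classes. ERα-only regions numbered 2, against 5 in the 20000 strongest and 2 to 4 without 1 library. PR-only regions numbered 10, against 4 in the 20000 strongest and 10 to 14 without 1 library. Regions in all 8 numbered 11, against 5 with a 10 kb window, 7 at −log10 p of at least 5, 2 in the 20000 strongest and 11 to 13 without 1 library. Differences of single genes whose groups did not overlap changed sign as follows: for Y541S over WT in ERα, Egfr to 0.17 in plain numbers, Erbb2 to 0.13 in the 20000 strongest, Erbb4 to −0.13 at −log10 p of at least 5, and Nrg1 to −0.38 and −0.37 at these 2 cuts. For PR, Erbb3 changed to 0.085 in the 20000 strongest and 0.16 in plain numbers. For ERα over PR in Y541S glands, Erbb3 changed to 0.015 with a 10 kb window, 0.55 at −log10 p of at least 5 and 0.21 in the 20000 strongest, and Nrg1 to −0.18 at −log10 p of at least 5. Among differences whose groups overlapped, Erbb3 for ERα changed to 0.36 in plain numbers and 0.046 at −log10 p of at least 5, Erbb2 for PR to 0.24 in plain numbers and 0.033 with a 10 kb window, and Egfr for ERα over PR in Y541S glands to −0.016 with a 10 kb window. In WT glands, ERα over PR changed to −0.16 for Nrg1 in plain numbers, and for Erbb3 to −0.36 in plain numbers and −0.22 with a 10 kb window. The causes were not tested. The replicate block restricts only the permuted arrangements, so it cannot change a difference. Its exact p was 0.5 for each of the 5 genes in Y541S over WT for ERα, the smallest it allows being larger than without the block.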
